A study of Mus musculus with 696 samples.

Results

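The clade B serpins are protease inhibitors and their relatives that, unlike most serpins, carry no classical secretion signal and act largely inside cells. This account covers 6 of them, Serpinb3a, Serpinb3b, Serpinb3d, Serpinb5, Serpinb11 and Serpinb12, in keratinocytes of mouse tail skin before and after wounding. The 6 genes are 6 of the 16 clade B serpin genes in a count table of 15652 genes, and the members were chosen by name with their levels over the time points, the cells that held them and their co-expression in these same cells in view. Those values are therefore given as a description with no p-value, and p-values are given only for genes outside the 6. How many of the 6 passed the rule used for all genes is stated as part of that description.

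An inhibitory serpin offers its reactive loop to a protease as a substrate, and the protease is trapped and inactivated once it cuts the loop. In stratified epithelia clade B serpins are known as genes of squamous differentiation and of the stressed or inflamed epidermis, where they stand against trypsin-like and chymotrypsin-like serine proteases and against lysosomal cysteine proteases. Serpinb5 (maspin) is the exception, since it is a non-inhibitory serpin known for effects on adhesion and migration. Serpinb3a, Serpinb3b and Serpinb3d belong to the mouse family related to the human squamous cell carcinoma antigens, Serpinb12 is an inhibitor of trypsin-like proteases, and Serpinb11 is a less studied member.

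The study asked how progeny of Lrig1 stem cells of the upper hair follicle behave after a first and a second wound. All cells came from female mice of mixed CBA C57BL/6 background that carried Lrig1-EGFP-ires-CreERT2 together with the Rosa26-fl/STOP/fl-tdTomato reporter, in which hydroxytamoxifen, painted once on the tail before wounding, turned on tdTomato in cells that express Lrig1 and in all their progeny, and tdTomato-positive cells were sorted, so that cells outside that lineage were not sampled. The time points were 0w (unwounded skin), 1w pw1 (1 week after a full-thickness wound), 8w pw1 (8 weeks after it) and 1w pw2 (1 week after a second wound over the healed one, week 9 in the labels), and the wounded tissue held the wound bed together with follicles at a distance from it. The mice were labelled and first wounded as young adults, by the study's methods, so the later groups were older by the weeks in their names. Every group carries the reporter alleles and the hydroxytamoxifen.

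Single cells were sorted into plates and read with Smart-seq2, a method that reads transcripts along their whole length without molecular identifiers. The 4 time points, in the order given, held 179, 168, 172 and 177 cells, on 2 plates per time point with 79 to 91 cells each. Estimated counts per plate ranged from 12293182 to 19760820, the median cell of a plate from 64980 to 256588 counts, and the deepest cell took 3.64% to 12.1% of its plate. The labels do not say that the plates of a time point came from separate animals, so error terms and p-values measure the spread between plates only. The keratin Krt14 was counted in 620 of the 696 cells. Defining genes of T cells (Trdc), Langerhans cells (Cd207), myeloid cells (Lyz2, Retnlg), melanocytes (Tyrp1) and endothelium (Cdh5) were at 0 or not in the table. The rest of those lists summed to 1.75 to 20.1 CPM for T cells, 103.1 to 381 CPM for Langerhans cells (a list that holds Epcam, which epithelial cells also express), 0.203 to 4.75 CPM for myeloid cells, 1.61 to 7.65 CPM for melanocytes and 94.5 to 1812 CPM for endothelium (Pecam1 alone), and fibroblast markers to at most 29.5 CPM. CPM, the counts as a rate of the library total, is the unit of all levels.

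The 6 genes lie in a single stretch of chromosome 1. In the GRCm38 annotation 12 clade B genes stand between 106861173 and 107610484 (749 kb), and 16 further clade B genes or pseudogenes are on chromosome 13. Serpinb5 (chr1:106861173-106883348, plus strand) opens the cluster, followed by Serpinb12 (chr1:106934449-106957080, plus strand). Serpinb3a (chr1:107045587-107052303), Serpinb3d (chr1:107078167-107083506) and Serpinb3b (chr1:107153940-107278361) follow on the minus strand, and Serpinb11 (chr1:107361198-107380475) is back on the plus strand. The annotated span of Serpinb3b overlaps that of its paralog Serpinb3c (chr1:107271201-107278371) by 7161 bases. The RefSeq start of Serpinb3b, before which its window below lies, is outside that overlap. The 250 bases before the RefSeq start (GRCm38.p6), written 5′ to 3′ on the strand of the gene, are shown for the 4 members whose levels were far higher 1 week after either wound (Serpinb12, Serpinb3a, Serpinb3b and Serpinb3d) and for Serpinb11, whose level was not. Capitals mark the letters TATAAA, the AP-1 motif TGANTCA and the C/EBP motif TTNNGCAA on either strand, and none of these matches overlaps another.
Serpinb12, first of 2 annotated starts (chr1:106934199-106934448, plus strand): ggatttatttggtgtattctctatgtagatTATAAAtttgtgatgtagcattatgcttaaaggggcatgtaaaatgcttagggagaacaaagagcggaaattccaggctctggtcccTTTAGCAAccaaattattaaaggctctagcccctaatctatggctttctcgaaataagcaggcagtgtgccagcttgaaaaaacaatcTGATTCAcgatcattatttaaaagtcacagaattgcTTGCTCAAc
Serpinb3a (chr1:107052304-107052553, minus strand): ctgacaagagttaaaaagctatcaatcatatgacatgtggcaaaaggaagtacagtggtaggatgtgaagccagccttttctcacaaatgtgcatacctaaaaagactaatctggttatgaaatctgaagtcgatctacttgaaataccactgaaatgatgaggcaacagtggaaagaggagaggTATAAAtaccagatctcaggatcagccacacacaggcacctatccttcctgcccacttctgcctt
Serpinb3b (chr1:107161115-107161364, minus strand): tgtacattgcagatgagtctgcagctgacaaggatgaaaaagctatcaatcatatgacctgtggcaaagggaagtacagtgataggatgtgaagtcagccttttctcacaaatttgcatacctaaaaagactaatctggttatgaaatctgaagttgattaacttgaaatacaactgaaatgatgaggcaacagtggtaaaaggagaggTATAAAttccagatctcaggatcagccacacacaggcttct
Serpinb3d (chr1:107083481-107083730, minus strand): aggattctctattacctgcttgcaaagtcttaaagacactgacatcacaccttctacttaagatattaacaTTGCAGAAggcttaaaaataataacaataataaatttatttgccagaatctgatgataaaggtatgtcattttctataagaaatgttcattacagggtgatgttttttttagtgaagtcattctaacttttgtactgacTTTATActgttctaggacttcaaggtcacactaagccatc
Serpinb11 (chr1:107362064-107362313, plus strand): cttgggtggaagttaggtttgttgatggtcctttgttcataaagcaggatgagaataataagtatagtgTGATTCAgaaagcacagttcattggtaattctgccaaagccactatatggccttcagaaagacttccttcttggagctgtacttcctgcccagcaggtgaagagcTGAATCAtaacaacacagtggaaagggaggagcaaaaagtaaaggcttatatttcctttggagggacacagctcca

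The windows of Serpinb3a and Serpinb3b were nearly the same sequence, with an identity of 92.5% in a pairwise alignment, and both hold TATAAA, 65 and 41 bases before the start. The Serpinb3d window was 68.8% identical to that of Serpinb3a and 67.4% to that of Serpinb3b, against 59.3% to 66.3% for the pairs with Serpinb5, Serpinb11 or Serpinb12 among the 6 genes, and holds TATAAA only on the opposite strand (40 bases before the start) with a C/EBP motif 179 bases before it. The Serpinb12 window holds an AP-1 motif 45 bases and C/EBP motifs 133 and 9 bases before the start, and TATAAA 220 bases before it. Serpinb11, which did not follow the other genes over time, holds AP-1 motifs 181 and 76 bases before its start, and Serpinb5 holds an AP-1 motif 140 bases before it. The AP-1 letters occur in 6.75% of 32851 windows of this length, the C/EBP letters in 9.56% and TATAAA in 12.4%. The STAT letters TTCNNNGAA and TTCNNNNGAA (7.02% and 5.85% of windows) were in none of the windows of the 6 genes. These matches are letters in a window and were not tested against the levels.

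Serpinb5 had the highest mean level of the 6 per kilobase of transcript at every time point. Its level was 777 and 1124 CPM in the plates of 0w, 4370 and 4263 CPM at 1w pw1, 954 and 2134 CPM at 8w pw1 and 2006 and 3420 CPM at 1w pw2. Both plates of 1w pw1 lay above both plates of every other time point, while the plates of 8w pw1 overlapped those of 0w. The mean was 4.54-fold that of 0w at 1w pw1 and 2.85-fold at 1w pw2, with log2 fold changes of 2.18 (SE 0.52) and 1.51 (SE 0.51). At 8w pw1 it was 1.62-fold, but 1.00-fold without plate 2 and 2.24-fold without plate 1, and a single cell held 36.8% of the Serpinb5 counts of plate 2. In sums over a plate, more cells with a transcript and more transcript per cell cannot be told apart. The median level in cells with a Serpinb5 count was 783 and 821 CPM at 0w, 2875 and 3200 at 1w pw1, 671 and 800 at 8w pw1 and 1626 and 2319 at 1w pw2. These medians pool kinds of cells whose mix differed between the plates. The part of that mix was not tested. Within single clusters of cells, described further on, the plates of 0w and 1w pw1 did not overlap in cluster 1 (1008 to 1084 against 2405 to 2616 CPM) and overlapped in cluster 3 (1367 to 2092 against 1949 to 2334 CPM), cluster 5 and cluster 8.

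Serpinb12, the inhibitor of trypsin-like proteases, went from near 0 to more than 100 CPM 1 week after either wound and was low again between the wounds. Its level was 1.66 and 1.46 CPM at 0w, 265 and 647 at 1w pw1, 14.2 and 3.13 at 8w pw1 and 106 and 493 at 1w pw2. The plates of 1w pw1 and 1w pw2 overlapped, and both times lay above 8w pw1, which lay above 0w. The mean was 292-fold that of 0w at 1w pw1 (log2 fold change 8.18, SE 1.13) and 192-fold at 1w pw2 (7.58, SE 1.10). The fold at 1w pw2 was 68.0 without plate 2 of that time point and 316 without plate 1, and the fold at 1w pw1 was 170 without its plate 2. At 8w pw1 the mean was 5.55-fold that of 0w, but 2.01-fold without plate 1, where a single cell held 77.7% of the counts, and 9.10-fold without plate 2.

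Serpinb3a and Serpinb3d were not counted in any cell of unwounded skin. Serpinb3a had 0 CPM in both plates of 0w, 49.1 and 198 at 1w pw1, 2.59 and 0.979 at 8w pw1 and 15.7 and 185 at 1w pw2. Serpinb3d likewise had 0 CPM in both plates of 0w, with 86.8 and 120 at 1w pw1, 2.02 and 13.3 at 8w pw1 and 78.2 and 396 at 1w pw2. For both genes every plate taken 1 week after a wound lay above every plate of 8w pw1, and the plates after the first and the second wound overlapped. Set against 3 counts over the plates of 0w, Serpinb3a was at least 1554-fold higher at 1w pw1 and at least 1264-fold higher at 1w pw2. The bound at 1w pw1 was 2490 without its plate 1 and 619 without its plate 2, and that at 1w pw2 was 2330 without its plate 1 and 198 without its plate 2. Serpinb3d was at least 1305-fold higher at 1w pw1 and at least 2988-fold higher at 1w pw2, the latter at least 4992-fold without plate 1 of 1w pw2 and at least 985-fold without plate 2. With 1 plate at 0w the same floor falls on fewer counts, and the bounds were 762 and 792 for Serpinb3a and 640 and 665 for Serpinb3d at 1w pw1, and 620 and 644 and 1466 and 1523 at 1w pw2. The few counts of 8w pw1 came mostly from single cells, which held 74.5% and 100% of the Serpinb3a counts and 89.3% and 96.1% of the Serpinb3d counts of its plates. The bounds at 8w pw1, at least 22.5-fold for Serpinb3a (12.3 without plate 1 of 8w pw1) and at least 96.5-fold for Serpinb3d (168 without plate 1 and 25.4 without plate 2), rest on those cells, and were 11.03 and 11.46 for Serpinb3a and 47.3 and 49.2 for Serpinb3d with 1 plate at 0w.

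Serpinb3b differed from these paralogs in that it was present before wounding and stayed high between the wounds. Its level was 13.9 and 18.0 CPM at 0w, 272 and 548 at 1w pw1, 182 and 409 at 8w pw1 and 336 and 988 at 1w pw2. All plates after the first wound lay above those of 0w, and the 3 later time points overlapped in their order. Among plates of the same number, the level was lowest at 0w, then 8w pw1, then 1w pw1 and highest at 1w pw2, for both numbers. The mean was 25.7-fold that of 0w at 1w pw1 (log2 fold change 4.69, SE 0.73), 18.6-fold at 8w pw1 (4.21, SE 0.72) and 41.6-fold at 1w pw2 (5.38, SE 0.76). Without the higher plate of each time point the folds were 17.1, 11.4 and 21.1. From 1w pw1 to 8w pw1 the mean Serpinb3b level went to 0.721 of its value, where those of Serpinb12, Serpinb3a and Serpinb3d went to 0.0190, 0.0145 and 0.0740 of theirs, and that of Serpinb5 to 0.358. Without 1 plate of either time point these ratios ran from 0.443 to 1.09 for Serpinb3b, which crosses 1, and from 0.221 to 0.494 for Serpinb5. They ran from 0.00687 to 0.0327 for Serpinb12, 0.00793 to 0.0364 for Serpinb3a and 0.0195 to 0.128 for Serpinb3d. The range of Serpinb3b overlapped that of Serpinb5 and lay above those of the other 3. Such left-out fits break pairs of plates with the same number, a pairing that rests on a check of these data. Within plates of the same number Serpinb3b was lower at 8w pw1 than at 1w pw1 in both pairs (182 against 272 and 409 against 548 CPM).

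The make-up of the Serpinb3 counts moved with the wounds accordingly. Of the counts of Serpinb3a to Serpinb3d together, Serpinb3b held 99.2% and 99.7% at 0w, 64.3% and 60.7% at 1w pw1, 95.9% and 95.5% at 8w pw1 and 76.7% and 60.7% at 1w pw2. Serpinb3d took 20.5% and 13.3% at 1w pw1 and 17.8% and 24.3% at 1w pw2, and Serpinb3a took 11.6% and 21.9% and then 3.59% and 11.4%. The family summed to 13.97 and 18.0 CPM at 0w, 423 and 902 CPM at 1w pw1, 189 and 429 CPM at 8w pw1 and 438 and 1628 CPM at 1w pw2. These paralogs are alike in sequence, so reads may be split between them, and how many were split was not measured. Over aligned transcripts Serpinb3b was 93.1% identical to Serpinb3a and 94.0% identical to Serpinb3c, and Serpinb3a was 89.2% identical to Serpinb3d. Non-whole estimates, the mark of reads shared out by Salmon, made up 66.2% of the Serpinb3a values above 0, 44.2% for Serpinb3b and 36.8% for Serpinb3d, against 12.2% over all genes and 89.0% for Serpinb3c. Of 75-base stretches, the read length, only 0.194% of Serpinb3a and 2.28% of Serpinb3b occur unchanged in another clade B gene, and none of Serpinb3d. The division of counts within the family is therefore less certain than its sum, while Serpinb5, Serpinb11 and Serpinb12 share no such stretch.

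**Figure D1:**
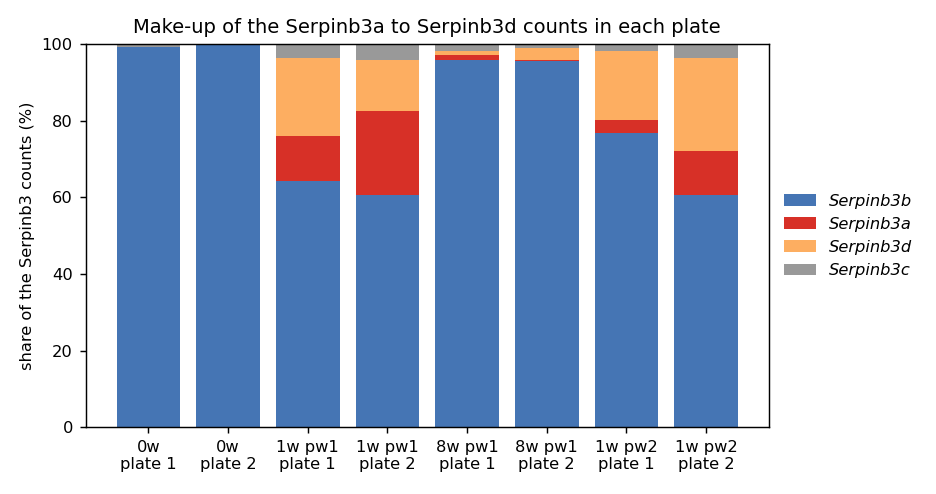
Share (%) of the counts of Serpinb3a, Serpinb3b, Serpinb3c and Serpinb3d together that fell to each gene, for each of the 8 plates in the order of the time points. Serpinb3b holds 95.5% or more of the counts at 0w and 8w pw1 and 60.7% to 76.7% at 1w pw1 and 1w pw2, when Serpinb3d and Serpinb3a take most of the rest.

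Serpinb11 did not follow the other 5 genes. Its level was 110 and 49.5 CPM at 0w, 51.9 and 65.2 at 1w pw1, 32.3 and 10.05 at 8w pw1 and 22.6 and 33.5 at 1w pw2. The mean was highest at 0w, but the plates of 0w and 1w pw1 overlapped and so did those of 1w pw2 and 8w pw1. The mean at 1w pw1 was 0.736 of that at 0w with both plates and 1.18-fold without plate 1 of 0w, so its direction rests on that plate. At 8w pw1 the mean was 0.266 of that at 0w (log2 fold change −1.91, SE 0.66), or 0.126 and 0.406 without plates 1 and 2 of 8w pw1, and at 1w pw2 it was 0.352 (−1.50, SE 0.66). Without plate 1 of 0w these ratios were 0.428 and 0.567.

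**Figure D2:**
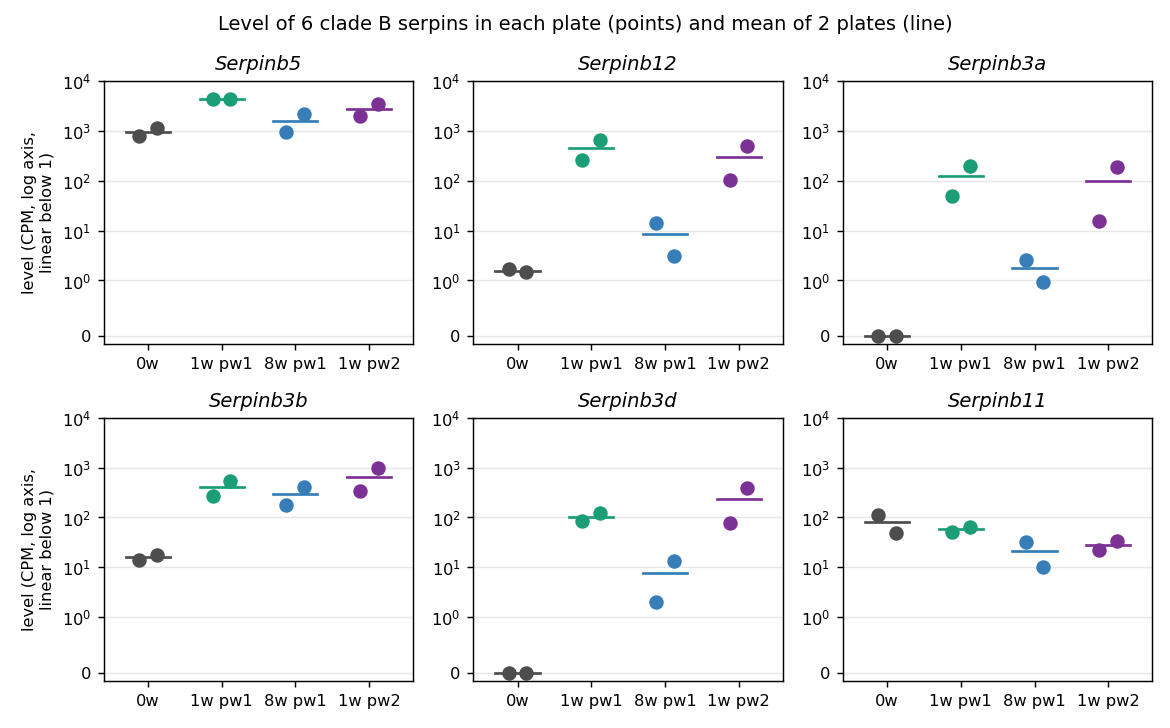
Level (TMM-scaled CPM, logarithmic axis that is linear below 1) of each of the 6 genes at each time point, with 1 point per plate and a line at the mean of 2 plates. Serpinb12, Serpinb3a and Serpinb3d are high 1 week after either wound and low at 8w pw1, Serpinb3b is high at all 3 later times, Serpinb5 is at 777 CPM or above in every plate and Serpinb11 is at 110 CPM or below.

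Levels of different genes compare only per length of transcript. Per kilobase of the longest coding transcript, mean CPM at 0w was 356 for Serpinb5, 38.2 for Serpinb11, 9.63 for Serpinb3b, 0.923 for Serpinb12 and 0 for Serpinb3a and Serpinb3d. At 1w pw1 the order was Serpinb5 (1616 CPM per kilobase), Serpinb12 (270), Serpinb3b (248), Serpinb3d (85.2), Serpinb3a (76.1) and Serpinb11 (28.1). At 1w pw2 Serpinb3b (400.4) and Serpinb3d (195) stood above Serpinb12 (177), which in turn stood above Serpinb3a (61.9). Serpinb11 thus went from the second most abundant of the 6 per kilobase at 0w to the least abundant at 1w pw1 and 1w pw2.

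Between 1w pw1 and 1w pw2 the log2 fold changes ran from −1.06 (SE 0.65) for Serpinb11 to 1.20 (SE 0.92) for Serpinb3d, and the means at 1w pw2 were 0.628 of those at 1w pw1 for Serpinb5, 0.657 for Serpinb12, 0.814 for Serpinb3a, 1.62 for Serpinb3b and 2.29 for Serpinb3d. Leaving out 1 plate at a time moved these ratios across 1 for 4 genes, from 0.233 to 1.13 for Serpinb12, 0.128 to 2.04 for Serpinb3a, 0.820 to 2.44 for Serpinb3b and 0.755 to 3.83 for Serpinb3d, and the direction was not stable for these 4. Between plates of the same number, the level at 1w pw2 was lower in both pairs for Serpinb5, Serpinb11, Serpinb12 and Serpinb3a, higher in both for Serpinb3b, and lower in one pair and higher in the other for Serpinb3d. The healed state of 8w pw1 lay above 0w in the means of all members but Serpinb11. From 8w pw1 to 1w pw2 the mean was 34.6-fold for Serpinb12, 56.2-fold for Serpinb3a, 31.0-fold for Serpinb3d, 2.24-fold for Serpinb3b, 1.76-fold for Serpinb5 and 1.32-fold for Serpinb11. Without 1 plate of either time point these were 12.2 to 95.6, 8.82 to 104, 10.2 to 118 and 1.14 to 3.64 for the first 4, up to 2.84 for Serpinb5 and 0.867 to 2.79 for Serpinb11. On the log2 scale the change over the second healing less that over the first was −3.52 (SE 0.91) for Serpinb3b, −3.07 (SE 1.21) for Serpinb12, −1.37 (SE 0.71) for Serpinb5 and 0.85 (SE 0.91) for Serpinb11.

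A gene was called changed at an adjusted p below 0.05 and a fold above 2 by edgeR's quasi-likelihood test. By that rule 4 of the 6, Serpinb3a, Serpinb3b, Serpinb3d and Serpinb12, were higher at 1w pw1 than at 0w, where 0.527% of the 13853 genes tested were called, and the same 4 at 1w pw2, where 0.267% were called. None was called at 8w pw1 against 0w (0% of genes), between 1w pw1 and 8w pw1 (0.115%), between 1w pw1 and 1w pw2 (0%), between 8w pw1 and 1w pw2 (0.00722%) or for the difference of the healings (0%). Over all genes an unadjusted p below 0.05 was met by 1587, 896 and 1739 genes in the contrasts with 0w, in the order of time, by 1531 from 1w pw1 to 8w pw1, 832 from 1w pw1 to 1w pw2, 1100 from 8w pw1 to 1w pw2 and 740 when the healings were compared. Since the members were chosen by these contrasts, nothing is read from their counts. The counts also rest on the plates of 0w, since leaving out either of them left 0 members called at both times. Calls over all genes fell with them, to 13 of 14537 and 8 of 14547 genes at 1w pw1 and to 4 and 1 at 1w pw2 without plates 1 and 2 of 0w. At 1w pw1, 2 members were called without its plate 2 (24 of 14543 genes). At 1w pw2, 1 was called without its plate 2 (16 of 14517) and 0 without plate 1 of 1w pw1 (9 of 14523). All plates gave 73 and 37 of 13853 genes.

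With the replicate number as a block the count was 5 at 1w pw1 with Serpinb5 added (1.70% of all genes called), 1 at 8w pw1, namely Serpinb3b (0.0217%), 4 at 1w pw2 (0.693%), 2 lower at 8w pw1 than at 1w pw1, Serpinb12 and Serpinb3d (0.794%), and 0 from 8w pw1 to 1w pw2 (0.0577%). Against 0w, DESeq2 called 5 members at 1w pw1 (5.17% of all genes), 3 at 8w pw1 (1.05%) and 4 at 1w pw2 (4.83%). It called 3 lower from 1w pw1 to 8w pw1 (3.98%), 0 from 1w pw1 to 1w pw2 (0.289%), 3 higher from 8w pw1 to 1w pw2 (2.01%) and 3 for the difference of the healings (0.556%).

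Counted by cell, the 4 genes with the larger folds were found in more cells 1 week after either wound. Serpinb3b was counted in 21 of 179 cells at 0w (11.7%, 95% Clopper-Pearson interval 7.41% to 17.4%), 112 of 168 at 1w pw1 (66.7%), 57 of 172 at 8w pw1 (33.1%) and 127 of 177 at 1w pw2 (71.8%). Serpinb12 was counted in 6 cells of 0w (3.35%), 66 cells of 1w pw1 (39.3%), 12 cells of 8w pw1 (6.98%) and 65 cells of 1w pw2 (36.7%). Serpinb3d was in 0, 44, 6 and 37 cells (0%, 26.2%, 3.49% and 20.9%) and Serpinb3a in 0, 37, 5 and 26 cells (0%, 22.0%, 2.91% and 14.7%). For these 4 genes the plates of 1w pw1 and 1w pw2 each held a higher share of cells than any plate of 0w or 8w pw1. The 0 of 179 cells at 0w allows a share of cells with a count of up to 1.68% (3 cells of that total), and such limits, like the intervals, take in counting error alone: without identifiers, reads are not separate molecules.

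Serpinb5 was counted in nearly every cell, with shares of 95.5%, 98.8%, 92.4% and 99.4% in the order of time. Serpinb11 was counted in 18.4%, 15.5%, 15.7% and 15.3% of cells, about the same share at all times. Its mean summed level ran from 79.6 CPM at 0w to 21.2 CPM at 8w pw1, with no contrast past the rule. The order of the time points was the same at equal depth for Serpinb3b, and for Serpinb12 but for 1w pw1 and 1w pw2, which were close. With every cell thinned to 50000 counts and shallower cells left out (35, 21, 53 and 27 cells in the order of time), Serpinb3b was in 10.4%, 69.4%, 31.9% and 73.3% of cells and Serpinb12 in 2.78%, 38.1%, 8.40% and 38.7%.

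Among cells that held Serpinb12, the median level per plate was 256 and 61.2 CPM at 0w (2 and 4 cells), 147 and 769 CPM at 1w pw1, 51.1 and 93.1 CPM at 8w pw1 and 119 and 308 CPM at 1w pw2. For Serpinb3b it was 84.6 and 271 CPM at 0w, 244 and 424 CPM at 1w pw1, 203 and 447 CPM at 8w pw1 and 301 and 660 CPM at 1w pw2. The medians in positive cells of 0w thus overlapped those of 1w pw1 for both genes, unlike the shares of positive cells. Leaving out the cell with the most counts of the gene on each plate, a choice made after the data were seen, gave Serpinb12 levels of 236 and 551 CPM at 1w pw1 and 77.7 and 319 CPM at 1w pw2, against at most 3.27 CPM at 0w and 8w pw1. For Serpinb3b it gave 9.76 and 13.4 CPM at 0w and 123 and 255 CPM at 8w pw1. Serpinb3d was then at 67.4 and 80.4 CPM at 1w pw1, 0.218 and 0.533 CPM at 8w pw1 and 32.2 and 285 CPM at 1w pw2, where a single cell had held 59.7% of the counts of plate 1. Serpinb3a was then at 40.1 and 142 CPM at 1w pw1, 0.670 and 0 CPM at 8w pw1 and 4.77 and 118 CPM at 1w pw2, where a single cell had held 70.0% of the counts of plate 1.

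**Figure D3:**
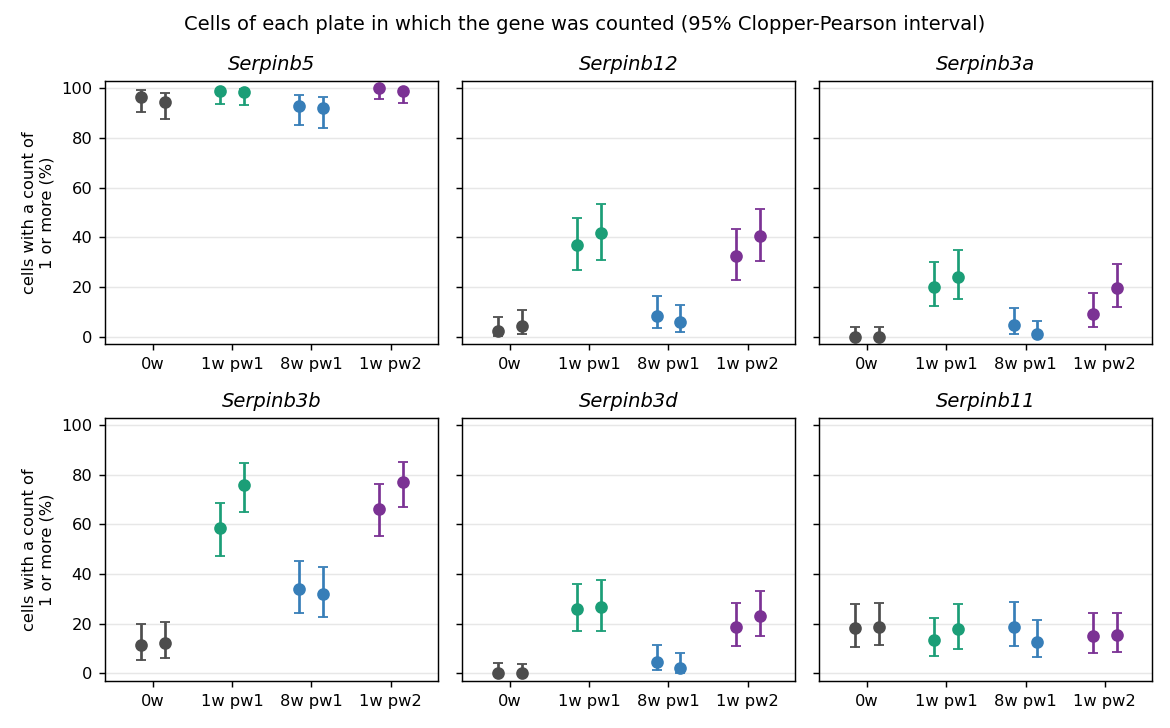
Cells of each plate with a count of 1 or more of the gene (%, 1 point per plate), with 95% Clopper-Pearson intervals that cover counting error only. For Serpinb12, Serpinb3a, Serpinb3b and Serpinb3d the points of 1w pw1 and 1w pw2 lie above those of 0w and 8w pw1, while Serpinb5 is near the top and Serpinb11 near 15% throughout.

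The transcripts lay in overlapping sets of cells. All cells that held Serpinb3a, Serpinb3b, Serpinb3d, Serpinb11 or Serpinb12 also held Serpinb5. Of the 68 cells with Serpinb3a, 66 held Serpinb3b (97.1%), 56 held Serpinb12 (82.4%) and 47 held Serpinb3d (69.1%). Of the 87 cells with Serpinb3d, 82 held Serpinb3b (94.3%) and 65 held Serpinb12 (74.7%), and of the 149 with Serpinb12, 140 held Serpinb3b (94.0%), against 32.4% of the cells without Serpinb12. After thinning to equal depth the shares with Serpinb3b were 96.4% for Serpinb3a and 93.0% for Serpinb12. For the Serpinb3 pairs, reads shared between paralogs can add to such overlaps, which was not tested, while Serpinb12 shares no read-length stretch with them.

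All 4 of Serpinb3a, Serpinb3b, Serpinb3d and Serpinb12 were counted together in 25 cells at 1w pw1, 15 at 1w pw2, 1 at 8w pw1 and 0 at 0w. None of the 4 was counted in 156 cells at 0w, 49 at 1w pw1, 115 of the cells of 8w pw1 and 47 of those of 1w pw2. Across cells, with plate means removed, Pearson's r of log levels was 0.55 between Serpinb3a and Serpinb3d, 0.52 between Serpinb12 and Serpinb3a, 0.45 between Serpinb12 and Serpinb3b and 0.40 between Serpinb5 and Serpinb3b. Serpinb11 overlapped these cells less. Of its 113 cells, 16 held Serpinb12 (14.2%) and 50 held Serpinb3b (44.2%), with r of −0.08 and −0.09. The 696 cells share plates and differ in depth, so these are descriptions without a test.

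Clusters made without any Serpinb gene placed the transcripts in different cells of the follicle and epidermis. Of 13 clusters, cluster 4 (69 cells), led by Krt2, Mt4, Krt10 and Krt1 and so called suprabasal-like, held 66.9% of all Serpinb3a counts, 64.6% of Serpinb12, 60.2% of Serpinb3d, 28.0% of Serpinb3b and 19.8% of Serpinb5. The wound-activated-like cluster 7 (49 cells, led by Krt6b, S100a8 and S100a9, with cells of 1w pw1 and 1w pw2 only) held 26.9% of Serpinb3a. Serpinb12 was counted in 63.8% of cells of cluster 4, 61.2% of cluster 8 (led by Krt7 and Calm5), 55.3% of cluster 9 (led by Skint genes) and 53.1% of cluster 7, and in 0 cells of cluster 2 (led by Ntrk2 and Adh7), of the bulge-like cluster 6, of cluster 11 (led by Avpr1a, Adh1 and Oxtr) and of the sebaceous-like cluster 13. Serpinb3b was the broadest of the 4, with 97.9% of cluster 9, 95.9% of cluster 8, 78.3% of cluster 4 and 68.0% of the upper follicle duct-like cluster 1, and again 0 of 52 bulge-like cells, 0 of 41 cells of cluster 11 and 0 of 21 sebaceous-like cells. These shares pool the time points, and the clusters without Serpinb12 held few cells from the weeks after a wound: cluster 2 had 47 cells of 0w and 25 of 8w pw1 only, and clusters 6, 11 and 13 had 0, 0 and 1 cells of 1w pw1 and 2, 1 and 3 cells of 1w pw2. Cell type and time cannot be told apart for the zeros of Serpinb12, Serpinb3a and Serpinb3d there. For Serpinb3b at 8w pw1 alone, when 33.1% of all cells held it, the counts were 0 of 18, 0 of 13 and 0 of 6 cells in these 3 clusters.

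**Figure D4:**
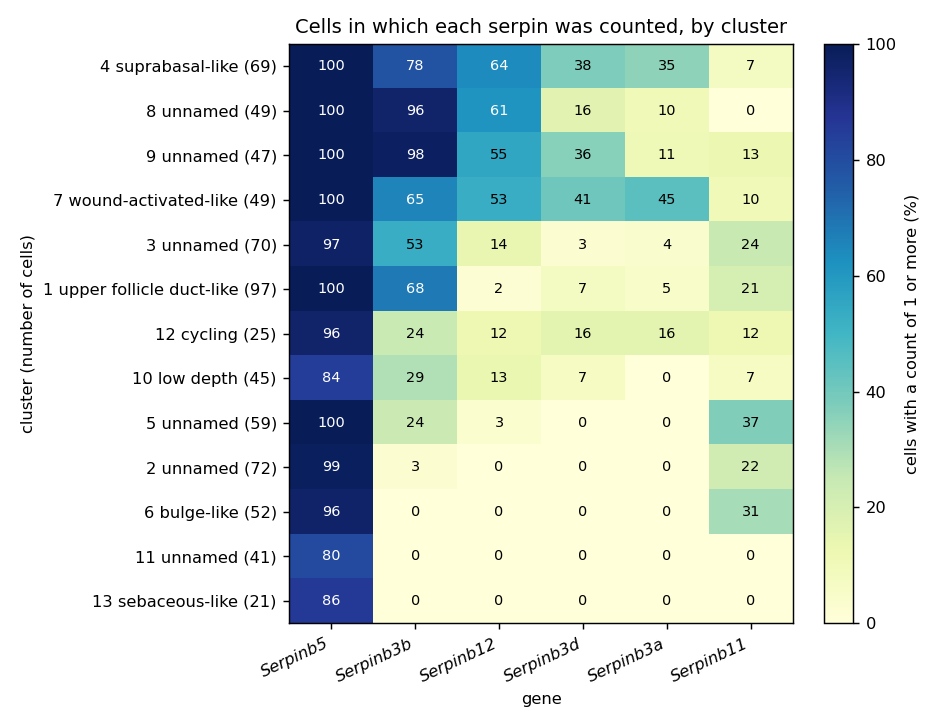
Cells of each cluster (rows, with the number of cells) in which each gene (columns) had a count of 1 or more (%, colour and number). Serpinb12, Serpinb3a and Serpinb3d are mostly in clusters 4, 8, 9 and 7, with Serpinb12 in at most 14.3% of any other cluster. Serpinb3a and Serpinb3d are each also in 16.0% of cluster 12. For Serpinb3a that is above its 10.2% of cluster 8 and 10.6% of cluster 9. Serpinb3b reaches the duct-like cluster 1 and cluster 3 as well. Serpinb11 is seen most often in clusters 5, 6, 3, 2 and 1 and is in 12.8% or less of the others.

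Serpinb11 was counted mostly in other clusters than Serpinb12. Cluster 5, led by the bulge marker Krt15 and left unnamed, held 41.6% of its counts, the bulge-like cluster 6 (led by Lgr5, Grem1 and Sfrp1) 27.0%, cluster 2 11.8% and cluster 1 10.04%. It was counted in 37.3% of cells of cluster 5 and 30.8% of cluster 6, and in 0 cells of clusters 8, 11 and 13. In bulge-like cells it was in 11 of 32 at 0w, at 213 and 294 CPM per plate, and in 5 of 18 at 8w pw1, at 13.3 and 130 CPM. In cluster 5 Serpinb11 was in 4 of 4 cells at 0w (3066 and 555 CPM), 9 of 20 at 1w pw1 (212 and 587 CPM), 3 of 11 at 8w pw1 (76.1 and 0 CPM) and 6 of 24 at 1w pw2 (45.7 and 259 CPM). The plates of 0w overlapped those of 1w pw1 there and lay above those of the later times. No bulge-like cell was found at 1w pw1 and 2 at 1w pw2, so the plates differ in how many cells of this kind they hold beside the level of Serpinb11.

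The suprabasal-like cluster 4 held 1 cell of 0w, 20 cells of 1w pw1, 28 of 8w pw1 and 20 of 1w pw2, so its levels could be compared between the later plates. Serpinb12 was in 20 of 20 cells at 1w pw1 (954 and 2270 CPM per plate), 8 of 28 at 8w pw1 (21.6 and 7.73 CPM) and 16 of 20 at 1w pw2 (832 and 2209 CPM). Serpinb3a was in 14, 2 and 8 of these cells, at 147 and 704, 14.5 and 6.44, and 13.9 and 855 CPM. Serpinb3d was in 11, 5 and 10 of them, at 175 and 303, 14.5 and 87.6, and 132 and 1602 CPM. Serpinb3b was in 17, 18 and 19, at 414 and 558, 156 and 371, and 624 and 2427 CPM. The cells of this cluster were not alike over time, however, since their Krt10 level was 82042 and 94495 CPM at 1w pw1, 6223 and 7220 CPM at 8w pw1 and 35363 and 72650 CPM at 1w pw2, and the basal keratin Krt14 was at 6117 and 8723 CPM at 8w pw1 against at most 1785 CPM at the other times.

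A finer clustering, looked at after the data were seen, took 48 of the 69 cells into a cluster with 20 cells of 1w pw1, 9 of 8w pw1 and 19 of 1w pw2. In it Krt10 was at 31997 and 26114 CPM at 8w pw1, against 36858 and 72650 CPM at 1w pw2 and 82042 and 94495 CPM at 1w pw1. The cells of 8w pw1 were still lower in Krt10 than all plates of the other times. Serpinb12 was in 7 of the 9 cells at 8w pw1, at 154 and 35.9 CPM, still below the 868 CPM and above of the other times. Serpinb3b was in 8 of the 9, at 710 and 1617 CPM, above the 414 and 558 CPM of 1w pw1. Serpinb3a at 8w pw1 (109 and 29.95 CPM) lay below the plates of 1w pw1 and between those of 1w pw2 (14.5 and 855 CPM), and Serpinb3d (105 and 407 CPM) overlapped the plates of the other times. With 3 and 6 cells on the plates of 8w pw1 these values rest on few cells.

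**Figure D5:**
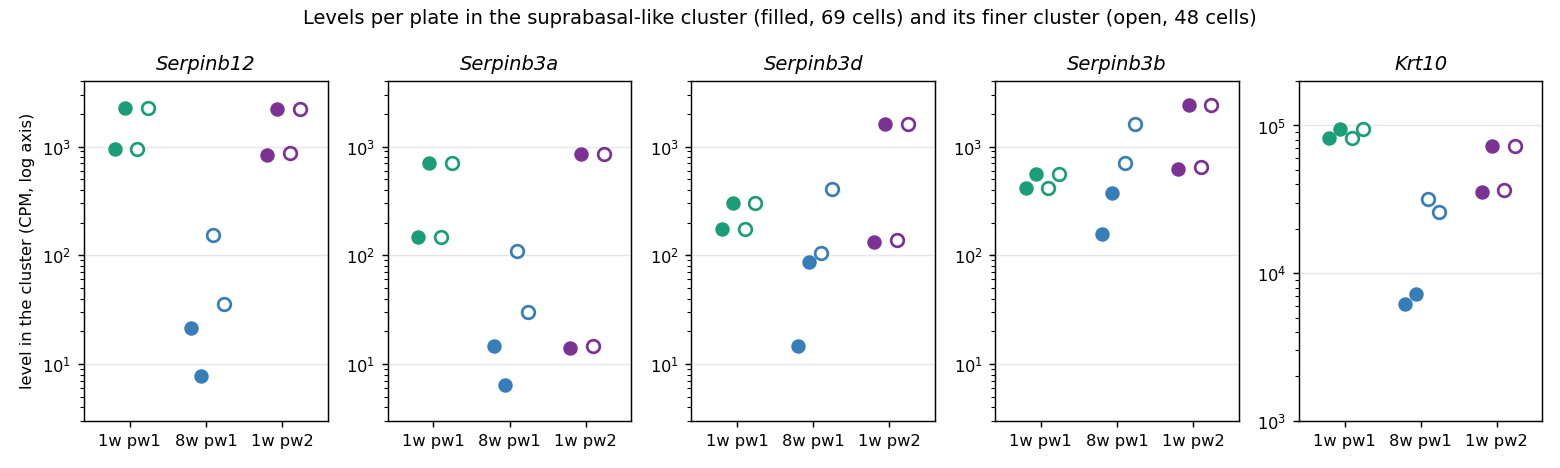
Level (CPM, logarithmic axis) of Serpinb12, Serpinb3a, Serpinb3d, Serpinb3b and the keratin Krt10 in the suprabasal-like cluster, with 1 point per plate, filled for all 69 cells and open for the finer cluster of 48 cells (0w holds 1 cell and none, and is not drawn). Serpinb12 at 8w pw1 lies below all plates of 1w pw1 and 1w pw2 in both, whereas Serpinb3b of the finer cluster at 8w pw1 lies above 1w pw1 and between the plates of 1w pw2.

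At 8w pw1 Serpinb3b was counted in 70.4% of cells of cluster 1, 64.3% of cluster 4 and 64.7% of cluster 3, and its level per plate was higher in cluster 1 than in any other cluster with cells on both plates, while it overlapped the plates of the finer suprabasal-like cluster. In the upper follicle duct-like cluster 1, led by Alox12e, Clca3a2 and Krt79, it was in 5 of 17 cells at 0w (18.7 and 14.8 CPM per plate), 13 of 18 at 1w pw1 (35.0 and 311 CPM), 19 of 27 at 8w pw1 (924 and 1108 CPM) and 29 of 35 at 1w pw2 (423 and 676 CPM). Both plates of 8w pw1 lay above all other plates of this cluster. Without the cell with the most counts on each plate they stood at 585 and 812 CPM, against 8.72 and 6.95 CPM at 0w, 13.5 and 217 CPM at 1w pw1 and 347 and 588 CPM at 1w pw2, so that the plates of 8w pw1 and 1w pw2 then overlapped. The median cell of this cluster had 0 CPM in both plates of 0w and 230 and 509 CPM at 8w pw1. Serpinb12 was in 2 of the 97 cells of cluster 1. Cluster 3, left unnamed, had all the listed duct markers but did not have its highest Serpinb3b level at 8w pw1. There the plates stood at 91.6 to 199 CPM at 8w pw1, against 13.4 to 25.4 CPM at 0w. They stood at 87.8 to 236 CPM at 1w pw1 and 189 to 411 CPM at 1w pw2.

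By Pearson's r of log levels over the 696 cells and 11923 genes, the genes most like each serpin differed. Serpinb12 was nearest to Krt1 (0.67), a keratin of suprabasal cells, to Mt4 (0.65), a metallothionein of squamous epithelia, and to Oas1f (0.60). Serpinb3a was nearest to the cornified envelope gene Sprr1b (0.51), to Gsdmc (0.49) and to the cystatin-type inhibitor Stfa1 (0.49), and Serpinb3d to Gsdmc (0.45), Wfdc17 (0.42) and Aox4 (0.42). Serpinb3b was nearest to Calm4 (0.56), Krt10 (0.53) and the membrane serine protease Tmprss4 (0.51), and Serpinb5 to Perp (0.50), a desmosome gene, Krtdap (0.48) and Anxa1 (0.48). Serpinb11 was nearest to Rflnb (0.42), Sema3e (0.38) and Ablim3 (0.38). With the basal keratin Krt14 Serpinb12 had an r of −0.30, and Serpinb11 had 0.25 with Krt6a.

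The 10 other clade B serpins of the table were not among the 6, and the list was made with earlier results known. They were tested. Of these, 1 rose by the edgeR quasi-likelihood test with Benjamini-Hochberg adjustment, Serpinb3c, at 1w pw1 (log2 fold change 8.23, SE 1.26, adjusted p = 0.0242) and at 1w pw2 (8.60, SE 1.27, adjusted p = 0.0309). Its level was 0.104 and 0.0539 CPM at 0w, 15.2 and 36.9 at 1w pw1, 3.24 and 4.96 at 8w pw1 and 8.26 and 58.9 at 1w pw2. It had 3 counts at 0w, and the ratio of means was 328 at 1w pw1 with a counting interval of 112 to 1589. Without plate 2 of 1w pw1, where a single cell held 75.3% of the counts, the ratio was 191, and without that cell the plate stood at 9.24 CPM. At 1w pw2 the ratio was 423, or 742 without its plate 1 and 104 without its plate 2, with log2 fold changes of 9.39 and 6.60. The annotated span of Serpinb3b overlaps this paralog, though the RefSeq start of Serpinb3b lies outside the overlap. Of the 146 cells positive for Serpinb3c, 144 held Serpinb3b, and 89.0% of the Serpinb3c values above 0 were not whole. The split of counts between Serpinb3c and Serpinb3b is therefore uncertain. Cluster 7 (wound-activated-like) held 67.4% of the Serpinb3c counts against 10.7% of those of Serpinb3b. Of the 75-base stretches of Serpinb3c, 2.08% occur in another clade B gene. The call at 1w pw1 was lost without plate 1 or plate 2 of 0w (adjusted p = 0.141 and 0.163) or of 1w pw1 (0.0513 and 0.0797), and the call at 1w pw2 without either plate of 0w (0.196 and 0.211), plate 1 of 1w pw1 (0.0510) or plate 2 of 1w pw2 (0.0601).

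The remaining 9 did not pass the test in any contrast. At 1w pw1 against 0w the nearest to the threshold were Serpinb1a, an inhibitor of neutrophil proteases (log2 fold change 3.54, SE 0.66, adjusted p = 0.0541 by edgeR), Serpinb6c (10.9, SE 2.001, adjusted p = 0.0573, with 0 counts at 0w, where the fitted value is no bound) and Serpinb9, the granzyme B inhibitor (−6.35, SE 1.28, adjusted p = 0.0674). Serpinb9 was counted in 4 and 2 cells on the plates of 0w, where single cells held 82.7% and 96.6% of its counts, and Serpinb6c in 9 and 9 cells at 1w pw1, so both values rest on few cells. All 3 passed with the replicate block and with DESeq2, and with both Serpinb1a also passed as lower at 8w pw1 than at 1w pw1 (log2 fold change −3.57, SE 0.66, adjusted p = 0.0979 by edgeR without the block). On the log2 scale Serpinb2, the plasminogen activator inhibitor 2, differed by 1.89 (SE 0.76, adjusted p = 0.355 by edgeR) and Serpinb13 by 1.86 (SE 1.31, adjusted p = 0.667). Serpinb6a (0.67), Serpinb7 (0.16) and Serpinb8 (0.10) were closer to 0, with adjusted p of 0.651, 0.987 and 0.983. The median of the 10 was 1.45 against −0.04 over all genes, and 5 of 10 had an unadjusted p below 0.05. At 8w pw1 the median was −0.19 with 3 of 10 at such a p and 0 called, and at 1w pw2 it was 2.62 with 6 of 10. The neighbours on chromosome 1 were thus not alike: Serpinb8 stood at 91.9 and 40.4 CPM at 0w and 73.5 and 68.0 CPM at 1w pw1, and Serpinb7 at 5.14 and 5.07 CPM at 0w, 0.980 and 10.4 at 1w pw1 and 19.7 and 75.1 at 8w pw1.

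The proteases that serpins of this clade are known to meet, and the other inhibitors of the epidermis, were given as 3 lists. These lists too were made with earlier results known. Of 15 other inhibitors 4 rose at 1w pw1, all of them stefins, the small inhibitors of cathepsins: Stfa1 (0 CPM in both plates of 0w, 1877 and 876 at 1w pw1, adjusted p = 0.0127 by edgeR), Stfa2 (0 CPM, then 46.3 and 48.4, adjusted p = 0.00335), Csta3 (0 CPM, then 338 and 45.1, adjusted p = 0.0216) and Stfa3 (94.8 and 78.6 CPM, then 3141 and 1647, log2 fold change 4.79, SE 0.72, adjusted p = 0.0236). These too are a family of near copies whose reads may be split. At 1w pw2 Stfa1 (adjusted p = 0.0273) and Stfa2 (adjusted p = 0.0123) rose against 0w, and from 1w pw1 to 8w pw1 Stfa2 (−8.75, SE 0.89, adjusted p = 0.0189) and Stfa3 (−6.35, SE 0.78, adjusted p = 0.0224) fell. Of 19 serine proteases 1 rose at 1w pw1, the kallikrein Klk13 (0.571 and 0 CPM, then 86.3 and 37.8, log2 fold change 7.72, SE 1.38, adjusted p = 0.0453). Of 9 cathepsins tested none passed in any contrast, with 4 of 9 at an unadjusted p below 0.05 at 1w pw1. The medians at 1w pw1 were 1.05 for the inhibitors, 1.92 for the serine proteases and 0.77 for the cathepsins, and 7 of 15 and 10 of 19 had an unadjusted p below 0.05. With the replicate block the cathepsin Ctsc passed at 1w pw1 and 1w pw2, as it did with DESeq2, and the proteases Klk8 and Plau at 1w pw1. Without either plate of 0w these lists had 1 call at 1w pw1 in place of 5 and 0 at 1w pw2, and without plate 1 of 1w pw1 they had 2 and 1. From 1w pw1 to 8w pw1 they had 0 calls without either plate of 8w pw1 or plate 1 of 1w pw1, 1 without plate 2 of 1w pw1, and 5 and 4 without plates 1 and 2 of 0w.

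The kinds of cells on the plates moved with these genes. Summed suprabasal markers stood at 3194 to 3369 CPM at 0w, 34904 to 36979 at 1w pw1, 5098 to 6566 at 8w pw1 and 18645 to 27550 at 1w pw2, and all 6 of the listed markers were in the table. Summed wound-activated markers (7 of 7 in the table) stood at 55.2 to 59.3, 10157 to 24122, 389 to 889 and 3070 to 4627 CPM. The means of Serpinb5, Serpinb12 and Serpinb3a had the same order over the time points as the suprabasal markers. Those of Serpinb3b and Serpinb3d were also lowest at 0w and next lowest at 8w pw1 but highest at 1w pw2. The part of the mix of cells in their levels was not tested. Bulge markers went from 849 to 1122 CPM at 0w to 249 to 407 CPM at 1w pw1 and were 763 to 794 CPM at 8w pw1, where Serpinb11 was lowest, and 820 to 947 CPM at 1w pw2, when 2 cells were in the bulge-like cluster and 24 in cluster 5, which also holds bulge markers.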

How the data were processed

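The authors deposited 1 table of expected counts (genes by cells) that Salmon 0.13.1 had estimated on GRCm38 (mm10), and their notes also name Seurat and R 4.0.3. The values were not normalised, 96.6% of all values were whole, and how transcripts were summed to genes is not given in the sources used here. Cells under 1000 genes or over 50% mitochondrial counts had been removed. The 6 genes and all gene lists were chosen with earlier results of these data known. Named beyond the members were the other clade B serpins and the listed proteases and inhibitors that passed the test or came nearest to it.

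Counts were summed over the cells of a plate and rounded, so 8 plates, 2 per time point, were the samples; the 2 plates of a time point differed, with r across genes of 0.852 to 0.917. Genes were tested with edgeR 4.0.16 in R 4.3.3 (all 8 plates, time as the only term, TMM scaling, default filter, quasi-likelihood test, 13853 genes, 4 residual degrees of freedom, biological coefficient of variation 0.61), with Benjamini-Hochberg adjustment over all genes. The test was tried on simulated counts first. DESeq2 1.42.0, other scalings and filters, and leaving out plates were alternatives. Same-numbered plates deviated from their time means together in all 6 pairs of time points (r across genes 0.121 to 0.213). The replicate number was therefore also fitted as a block. The pairing comes from this check, with correlations this low, and not from the labels. The labels also carry a code, such as RepB on the plates of 8w pw1 and RepC on plate 1 of 0w. What that code stands for is not given. Where it differs between time points, it cannot be told apart from time. The study's methods do not tie the number to their 2 independent experiments. Levels are TMM-scaled CPM for whole plates and the same rate over the cells concerned, unscaled, for clusters and single cells. A fold against 0 counts is a bound against 3 counts over the group. A cell held a gene at a count of 1 or more.

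Cells were clustered without the Serpinb genes (2000 variable genes, 20 principal components, 15 neighbours, Leiden at resolution 1 with igraph 0.11.9 and leidenalg 0.10.2), with no batch correction and no doublet caller, as each well was a sorted cell. Clusters were named from marker lists by at least 3 markers and a fitting leading gene. By judgement, cluster 3 (all 6 duct markers, but led by Klk10, Cdsn and other genes of cornification), cluster 5 (bulge markers Krt15, Sox9 and Lhx2, without Lgr5 or Cd34) and cluster 11 (4 sebaceous markers, none leading) were left unnamed. Positions are from the GENCODE annotation of GRCm38, promoter sequences from RefSeq (all 7 genes asked for matched).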

Additional observations from a re-analysis of the deposited data

How the results depend on the processing

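Of the counts of members called, DESeq2 moved those at 1w pw1 against 0w (5, from 4), 8w pw1 against 0w (3, from 0), 8w pw1 against 1w pw1 (3, from 0), 1w pw2 against 8w pw1 (3, from 0) and the contrast of both healings (3, from 0). The replicate block gave 5 at 1w pw1 against 0w, 1 at 8w pw1 against 0w and 2 at 8w pw1 against 1w pw1, and scaling every cell equally gave 1 in the last of these, where 20 of 14116 genes were called. Leaving out 1 plate at a time moved the calls of members at 1 week after either wound against 0w and at 8w pw1 against 1w pw1. It moved them in no other contrast. For the 10 other clade B serpins, DESeq2 gave 4, 1 and 5 calls against 0w in the order of time, 2 from 1w pw1 to 8w pw1, 1 from 1w pw1 to 1w pw2, 4 from 8w pw1 to 1w pw2 and 1 in the contrast of both healings. The replicate block gave 4 at 1w pw1 and 1 at 8w pw1 against 1w pw1, no filter 3 and leaving out the 3 deepest cells of every plate 2, both at 1w pw1, and leaving out plates 0 to 2 at 1w pw1 and 0 to 1 at 1w pw2. For the protease and inhibitor lists, DESeq2 gave 12, 2 and 12 calls against 0w, 6 from 1w pw1 to 8w pw1, 6 from 8w pw1 to 1w pw2 and 1 in the contrast of both healings. Against 0w the replicate block gave 8 at 1w pw1 and 4 at 1w pw2, 4 from 1w pw1 to 8w pw1 and 2 from 8w pw1 to 1w pw2. Equal scaling of cells gave 1 at 8w pw1 (3 of 14116 genes) and 1 at 1w pw2 (25), both against 0w. It gave 1 in the contrast of both healings (2 of 14116 genes). No filter gave 4 from 1w pw1 to 8w pw1 (23 of 15651 genes) and 1 from 8w pw1 to 1w pw2 (5). Leaving out plates moved the calls of these lists in every contrast but that between 1w pw1 and 1w pw2. The causes were not tested, except that a fit without a plate has fewer samples and compares with a lone plate that is assumed to vary like the other groups.

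No log2 fold change turned its sign where it was past the rule. Of the single-gene log2 fold changes under the alternatives, 648 were labelled the same, 47 were no longer past the rule and 46 moved. For the members, the same meant a shift within the SE and moved a larger one, whether or not a call was kept. For the other genes past the rule, the same meant still past it, and the 47 are all from these. The cluster with the most counts of a gene held 64.6% and 64.6% for Serpinb12 and 35.9% and 27.6% for Serpinb3b at resolutions 0.6 and 1.5. With a count of 5 in place of 1 to call a cell positive, Serpinb3b was in 9.50%, 60.7%, 23.8% and 63.3% of cells in the order of time and Serpinb12 in 2.79%, 33.3%, 3.49% and 30.5%. Depth limits the lowest values, such as the 3 counts of Serpinb3c at 0w and the 51 of Serpinb3a at 8w pw1.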
